A study of Mus musculus with 14 samples.

Results

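The 35 genes described here are a fixed list of cell cycle and proliferation genes, taken by symbol from the count tables of whole mouse hearts. This list, the further gene lists and the marker lists below were chosen with earlier results of these data known. Their shares beside those of all genes are therefore descriptions and no independent support. All 35 were among the 42396 genes listed in each table. Bulk RNA-seq had been performed on hearts of 14 female FS6KD mice, which are homozygous for a gene trap in Ndufs6 (Ndufs6 gt/gt) that lowers this subunit of respiratory complex I, on a mixed background of C57BL/6J and 129/Ola. The knockout experiment compared 4 hearts with intact Atf3 (Atf3+/+FS6KD) and 4 without it (Atf3-/-FS6KD), all taken at 12 weeks. Atf3, which encodes a stress-induced transcription factor, had been deleted over exons 2 to 4 by CRISPR-Cas9 in fertilized eggs of the FS6KD line, and founders with a large deletion had been intercrossed. In the AAV experiment, 3 hearts carried the label MyoAAV2-shCtrl and 3 the label MyoAAV2-shAtf3. They came from FS6KD mice that had received a muscle-directed adeno-associated virus as newborns, carrying a short hairpin RNA against Atf3 or a control, and their hearts were taken, as far as the series design can be read, 12 weeks after injection. The study's methods do not describe the AAV experiment. No group without the Ndufs6 trap was analysed here, so both arms of each comparison had complex I deficiency.

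Dividing cells copy their DNA in S phase and separate it in mitosis, and most genes of these phases are transcribed in waves. E2F transcription factors drive genes of DNA replication, and the complexes built on MuvB, with B-Myb and FoxM1, drive genes of mitosis through a promoter element called CHR (cell cycle genes homology region). Most cardiomyocytes stop dividing soon after birth. In adult hearts, division is found mostly in the other cells, such as fibroblasts, endothelial cells and leukocytes, whereas D-type cyclins and Pcna are also expressed outside division.

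Total estimated counts were between 30085432 and 134920825 per library. In each genotype, replicates 3 and 4 of the knockout experiment were the deeper libraries. Cardiomyocyte markers reached a summed level of 51700 to 75700 CPM (counts scaled to library size, TMM-normalised unless called raw), as the labelled tissue requires. Values below are listed in replicate order. Atf3 itself measured 25.8, 6.89, 6.91 and 6.36 CPM with intact Atf3 against 25.6, 37.6, 22.7 and 14.3 CPM in the Atf3-/-FS6KD libraries. This count covers the whole gene, so reads from outside the deleted stretch enter it, and it does not check the deletion. In the AAV experiment, Atf3 measured 10.1, 13.3 and 14.1 CPM under the shCtrl label against 21.2, 12.1 and 16.5 CPM under the shAtf3 label. It was thus not lower under the knockdown label, and the column names of that table contradict the labels, naming Atf3 where these say shCtrl. Every direction in the AAV experiment below is conditional on the labels.

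Of the 35 genes, 34 were above 1 raw CPM in at least 1 of the 14 libraries, and 22 were above it in every library. The polo-like kinase Plk1 was the gene that never passed. In the knockout experiment 32 genes passed in at least 1 of 8 libraries and 23 in all 8, and Ccnb1, Plk1 and Bub1 did not pass. In the AAV experiment 34 passed in at least 1 of 6 libraries and 25 in all 6. Some genes passed through 1 group alone, a filter that favours a difference in the direction of that group. These were Aurkb, Birc5, Kif11 and Ect2 through Atf3-/-FS6KD libraries, and Ccnb1, Ccnb2, Aurkb, Bub1, Birc5 and Kif11 through libraries labelled shCtrl. For Kif11 this rested on the split of its reads. With the copy summed it was above 1 raw CPM in all 8 knockout-experiment libraries, at 1.09 to 1.59 in Atf3+/+FS6KD, and in 5 of 6 AAV libraries, so that 24 genes passed in all 8.

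Levels between genes were compared as raw CPM per kb of exons (GENCODE M21). The D-type cyclins, which open G1 by activating Cdk4 and Cdk6, were the most abundant transcripts of the list. Ccnd2 had a median of 26.6 CPM per kb over the 14 libraries and a range from 18.8 to 33.8. Ccnd1 had a median of 18.1 and a range from 12.4 to 22.3, and Pcna, the sliding clamp of DNA polymerases, had a median of 15.6 and a range from 14 to 16.7. The range of Ccnd1 overlapped those of Ccnd2 and Pcna, while every value of Ccnd2 was above every value of Pcna. The Cdk inhibitor Cdkn1a (p21) came next with a median of 4.26 CPM per kb and a range from 1.64 to 9.48, below every value of Pcna. With its copy on an alternate locus summed, its median was 6.08 and its range 2.42 to 13.3, in the same rank. Helicase and nucleotide supply genes followed, with medians of 2.19 for Mcm6, 1.96 for Mcm3 and 1.86 for Rrm1. The mitotic genes filled the lower end, down to 0.101 CPM per kb for the checkpoint kinase gene Bub1. The spindle motor gene Kif11 was next to it at 0.108, but a copy of Kif11 on an alternate locus of the assembly holds 50% to 50.9% of the reads of gene and copy. With both summed Kif11 was at 0.216 CPM per kb, above 7 genes of the list. Kif20a, a kinesin gene of cytokinesis, was the highest of them at 1.37 CPM per kb. Of its annotated exonic bases, 29.3% overlap exons of Cdc23 on the opposite strand, and whether reads were counted by strand is not given, so its value is uncertain. The same limit applies to Ccnd1 (23.4% shared with LTO1), Ccne2 (17.4% with Ints8), Ccna2 (12.5% with Exosc9) and Prc1 (11.1% with Rccd1).

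**Figure D1:**
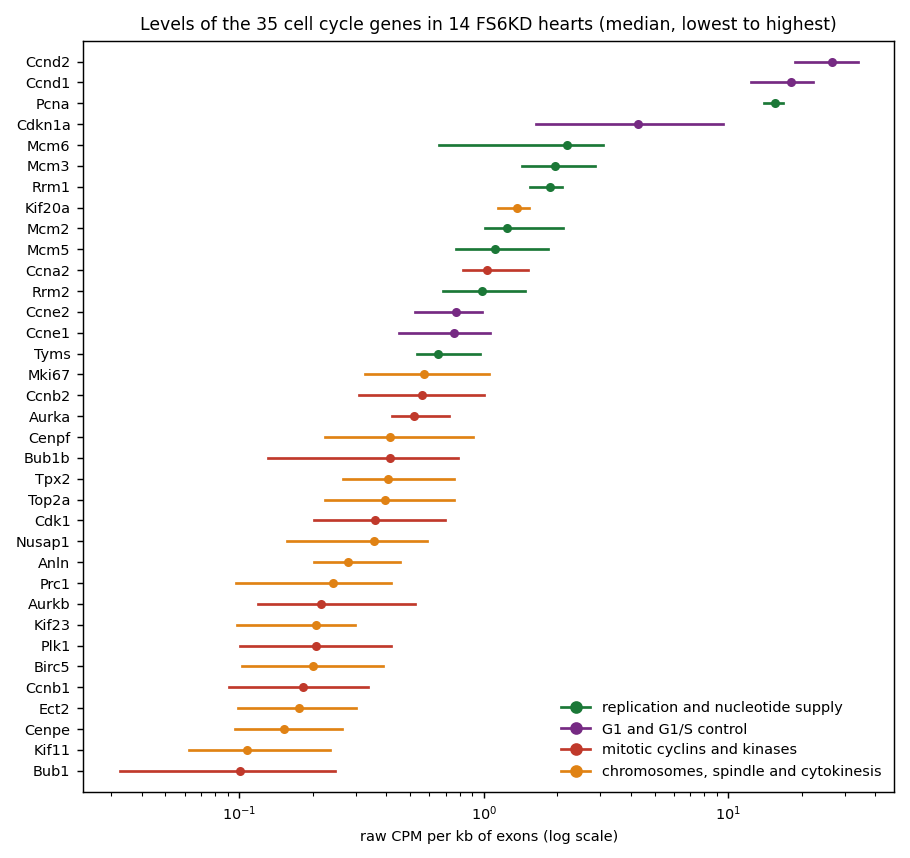
Raw CPM per kb of exons on a log scale for each of the 35 genes, with the median of 14 libraries as a point and the lowest to highest library as a line, coloured by role. Ccnd2, Ccnd1 and Pcna lie between 12.4 and 33.8 CPM per kb, and most mitotic genes lie below 1.

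Most mitotic genes with a promoter in the set searched held a promoter element that the list was not chosen on. RefSeq promoters (GRCm38.p6, 250 bases before to 50 bases after the start site) were found for 28 of the 35 genes, and both strands were searched. None was found for the mitotic genes Kif20a, Tpx2, Ccna2 and Aurkb or for Ccnd1, Ccnd2 and Ccne2. The G1 genes searched were therefore Ccne1 and Cdkn1a alone. The CHR letters, TTTGAA or TTCGAA, were present in 14 of 18 promoters of mitotic genes (77.8%), in 1 of 10 promoters of the replication and G1 genes (10%), and in 21.7% of all 27025 genes with a promoter. CCAAT, the element bound by NF-Y, was present in 15 of 18 (83.3%) and 7 of 10 (70%) against 41.1% of all. E2F letters (TTTGGCGC, TTTCCCGC, TTTGCCGC or TTTCGCGC) were present in 1 of 18 and in 3 of 10, against 2.6% of all. The ATF/CRE site TGACGTCA, the consensus of the family that Atf3 belongs to, was present in the promoters of Cenpe and Mcm5, which is 7.14% of 28 against 2.03% of all. These are counts of letters in a window and not of bound sites.

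The following 4 upstream stretches are shown 5′ to 3′ on the coding strand because they carry these elements in genes described below. Capitals mark every match, whichever strand it lies on, and a reversed match reads ATTGG for CCAAT. Mki67 (chr7:135716451-135716579, minus strand) holds 3 CCAAT and 2 CHR matches. Cdk1 (chr10:69352913-69353112, minus strand) holds 2 of each in this stretch and 1 E2F match. Cenpe (chr3:135212363-135212562, plus strand) holds the ATF/CRE site, with its first base at position -34 from the start, and 1 CCAAT. Cenpf (chr1:189688108-189688286, minus strand) holds 2 CCAAT matches, and its CHR lies just after the start site, outside the stretch.
Mki67: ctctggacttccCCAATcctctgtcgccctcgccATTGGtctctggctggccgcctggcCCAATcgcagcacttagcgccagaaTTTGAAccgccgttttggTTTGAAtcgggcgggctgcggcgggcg
Cdk1: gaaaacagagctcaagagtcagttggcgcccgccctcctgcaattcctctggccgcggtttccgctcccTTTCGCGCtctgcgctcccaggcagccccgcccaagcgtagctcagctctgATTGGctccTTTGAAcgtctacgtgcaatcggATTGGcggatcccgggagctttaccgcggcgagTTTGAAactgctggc
Cenpe: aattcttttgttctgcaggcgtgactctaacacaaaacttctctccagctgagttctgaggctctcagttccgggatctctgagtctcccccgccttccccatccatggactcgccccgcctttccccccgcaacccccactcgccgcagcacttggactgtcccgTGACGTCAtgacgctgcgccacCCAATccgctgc
Cenpf: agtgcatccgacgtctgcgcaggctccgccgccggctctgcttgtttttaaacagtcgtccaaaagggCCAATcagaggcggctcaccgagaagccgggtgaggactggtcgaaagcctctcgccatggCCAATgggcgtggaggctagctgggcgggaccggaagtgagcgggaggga

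The knockout comparison asked how the genes differed between Atf3-/-FS6KD and Atf3+/+FS6KD hearts. The mean was higher in Atf3-/-FS6KD for 29 of the 35 genes and lower for 6, and the genes of mitosis were those that stood highest. None passed an adjusted p of 0.05 in edgeR's quasi-likelihood test, and 0 of the 15592 genes tested did (0%). DESeq2 called 208 of all genes, among them Mki67 of the list, and limma-trend called 0. At an unadjusted p under 0.05, 10 of the 32 tested genes were higher and 1 was lower, against 5.41% of all tested genes higher and 4.69% lower. Without Atf3-/-FS6KD replicate 2, 6 of 29 tested genes were higher and 2 lower, against 8.16% of all genes in either direction. The groups did not overlap for 8 of the 32, all higher, against 3.08% of all genes higher and 2.63% lower. The median log2 fold change was 0.29 for the 32 genes and 5e-04 for all genes tested. Over the 27 genes whose mean over all 8 libraries was above 1 CPM, a choice that uses no group, the median was 0.20, with 9 genes higher and 1 lower at the unadjusted threshold. In whole hearts, a higher or lower share of cells of a type and more or less RNA per cell cannot be told apart.

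**Figure D2:**
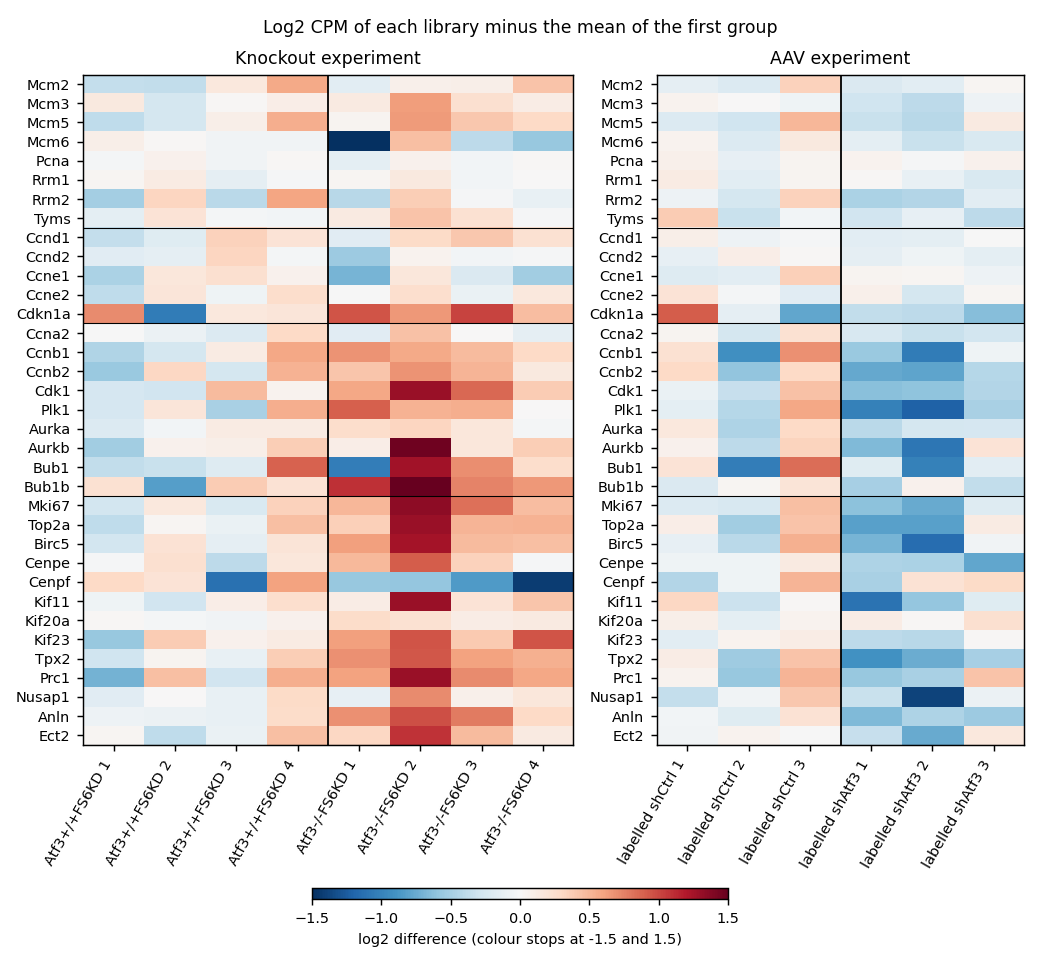
Log2 CPM of each gene (rows, grouped by role) in each library (columns), minus the mean of the first group of its experiment, Atf3+/+FS6KD or labelled shCtrl. Red is higher and blue lower, and Atf3-/-FS6KD replicate 2 and the library labelled shCtrl replicate 3 hold the strongest red among the mitotic rows.

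The genes of chromosomes, spindle and cytokinesis held most of these differences. Of their 13, 12 had a higher mean in Atf3-/-FS6KD, 8 were higher and 1 lower at the unadjusted threshold, and 7 did not overlap. Birc5, Kif11 and Ect2 passed the filter through Atf3-/-FS6KD libraries alone, Kif11 only because its reads were split with the copy, and this favours that direction. Over the other 10, 7 were higher and 1 lower at the unadjusted threshold, and 6 did not overlap. The median log2 fold change was 0.67 with or without these 3 genes. Anln encodes anillin, the scaffold of the contractile ring, and had the smallest p of the list. Its level was 1.91, 1.91, 1.87 and 2.46 CPM in Atf3+/+FS6KD against 3.28, 3.99, 3.48 and 2.5 CPM in Atf3-/-FS6KD. Every Atf3-/-FS6KD library was above every Atf3+/+FS6KD library, although replicate 4 of both genotypes nearly met. The log2 fold change was 0.69 with a standard error of 0.17 (edgeR adjusted p = 0.317).

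Tpx2 encodes a spindle assembly factor that activates Aurora A. Its level was 1.27, 1.6, 1.45 and 2.02 CPM in Atf3+/+FS6KD against 2.52, 2.99, 2.39 and 2.28 CPM in Atf3-/-FS6KD. The groups did not overlap, and the means of the genotypes were 1.58 ± 0.323 and 2.54 ± 0.315 CPM (SD, n = 4). This gave a log2 fold change of 0.67 with a standard error of 0.18 (edgeR adjusted p = 0.325). Mki67 encodes Ki-67, which coats mitotic chromosomes and serves as a proliferation marker. It was at 3.35, 4.56, 3.48 and 5.19 CPM in Atf3+/+FS6KD against 5.74, 10.3, 7.23 and 5.62 CPM in Atf3-/-FS6KD. The groups did not overlap, and replicate 2 was far above the other Atf3-/-FS6KD libraries. The log2 fold change was 0.80 with a standard error of 0.22 (edgeR adjusted p = 0.356). DESeq2 gave an adjusted p of 0.0497 for Mki67, and over all alternatives run its adjusted p ranged from 0.0497 to 0.813.

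Kif23, a kinesin gene of the central spindle, was at 0.789, 1.54, 1.23 and 1.28 CPM in Atf3+/+FS6KD against 1.81, 2.28, 1.56 and 2.29 CPM in Atf3-/-FS6KD. The lowest Atf3-/-FS6KD library only just exceeded the highest Atf3+/+FS6KD one, and the log2 fold change was 0.71 with a standard error of 0.22. Top2a, the topoisomerase that untangles replicated DNA, was at 2.06, 2.74, 2.52 and 3.70 CPM in Atf3+/+FS6KD against 3.45, 6.62, 3.85 and 3.86 CPM in Atf3-/-FS6KD. Its groups overlapped, and the log2 fold change was 0.67 with a standard error of 0.24. The other genes of this role without overlap were Birc5 (survivin), Kif20a and Prc1 (a bundler of midzone microtubules), with log2 fold changes of 0.72, 0.19 and 0.74. Cenpe, Kif11, Nusap1 and Ect2 had values from 0.22 to 0.55 with overlapping groups. With its copy summed Kif11 was at 1.38 ± 0.213 against 2.08 ± 0.893 CPM (SD, n = 4), a log2 fold change of 0.56.

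Cenpf, a kinetochore gene, went the other way, and it was singled out after its values were seen. It was at 11.4, 10.7, 4.25 and 14.1 CPM in Atf3+/+FS6KD against 6.25, 6.17, 5.13 and 3.45 CPM in Atf3-/-FS6KD. The groups overlapped because Atf3+/+FS6KD replicate 3 was as low as the Atf3-/-FS6KD libraries. The log2 fold change was -0.96 with a standard error of 0.34 (edgeR adjusted p = 0.417), and it stayed between -1.23 and -0.74 in every alternative run. Its unadjusted p in edgeR's quasi-likelihood test missed 0.05 in 4 alternatives, at 0.0628 when Atf3+/+FS6KD replicate 4 was left out, 0.0534 when replicate 4 of Atf3-/-FS6KD was, 0.0515 with a replicate block and 0.128 within replicates 3 and 4. Cenpf lies at 189640606 to 189688107 on chromosome 1, 1.48 Mb from Atf3 (191170296 to 191183333). The other genes of the list on this chromosome, Mcm6 and Mcm3, lie 62.81 and 170.35 Mb from it. By the mean per kb, Cenpf was above Mki67 in Atf3+/+FS6KD hearts (0.641 ± 0.266 against 0.402 ± 0.0836 raw CPM per kb, SD, n = 4) and below it in Atf3-/-FS6KD hearts (0.347 ± 0.0869 against 0.734 ± 0.229). In Atf3+/+FS6KD replicate 3, however, Cenpf was below Mki67.

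Among the mitotic cyclins and kinases, all 9 means were higher in Atf3-/-FS6KD. Of the 6 tested, 2 were higher at the unadjusted threshold, 1 did not overlap, and the median log2 fold change was 0.47. Without Aurkb, which passed through Atf3-/-FS6KD libraries alone, the median was 0.38 and both counts were the same. Bub1b encodes BubR1 of the spindle checkpoint and had the highest log2 fold change of the list. It was at 1.24, 0.585, 1.38 and 1.23 CPM in Atf3+/+FS6KD against 2.29, 3.26, 1.79 and 1.67 CPM in Atf3-/-FS6KD. All Atf3-/-FS6KD libraries were the higher ones, with a log2 fold change of 0.97 and a standard error of 0.29 (edgeR adjusted p = 0.383). Cdk1, the kinase that drives entry into mitosis, was at 1.08, 1.05, 1.80 and 1.33 CPM in Atf3+/+FS6KD against 1.92, 3.18, 2.34 and 1.68 CPM in Atf3-/-FS6KD. Replicate 4 of Atf3-/-FS6KD fell below the highest Atf3+/+FS6KD library, and the log2 fold change was 0.76 with a standard error of 0.25. Ccnb2, a B-type partner of Cdk1, was at 0.478, 0.893, 0.590 and 1.03 against 0.962, 1.16, 1.03 and 0.792 CPM. These groups overlapped, and 5 of the 8 libraries were at or below 1 raw CPM. Ccna2, Aurka and Aurkb had log2 fold changes of 0.04, 0.17 and 0.57.

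The replication and G1 genes had medians near 0. The 8 genes of replication and nucleotide supply had a median log2 fold change of 0.05, with 5 means higher and 3 lower, and 0 at an unadjusted p under 0.05. Pcna was at 36.4, 38.8, 35.7 and 37.5 CPM in Atf3+/+FS6KD against 33.5, 38.9, 36.1 and 37.4 CPM in Atf3-/-FS6KD. These values overlapped throughout, and the log2 fold change of -0.02 (standard error 0.06) became 0.04 with library size alone as the scaling. Mcm6, a subunit of the replicative helicase, varied widely within a genotype, at 3.05, 14, 7.77 and 6.89 CPM in Atf3-/-FS6KD against 9.87 to 10.9 CPM in Atf3+/+FS6KD. Of the G1 genes, Ccnd1 was at 59.1, 67, 96.2 and 87.4 against 67.3, 92.9, 101 and 89 CPM (log2 fold change 0.18, standard error 0.17). Ccnd2 was at 229, 234, 323 and 253 against 176, 267, 250 and 255 CPM (log2 fold change -0.13, standard error 0.15). Both D-type cyclins overlapped between the genotypes. Cdkn1a was at 20.7, 6.09, 14 and 14.3 against 24.3, 19.8, 25.4 and 17.4 CPM (log2 fold change 0.65, standard error 0.30, edgeR adjusted p = 0.508). Its highest Atf3+/+FS6KD value lay within the Atf3-/-FS6KD range, and a copy on an alternate locus held 28.3% to 34.3% of its reads.

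**Figure D3:**
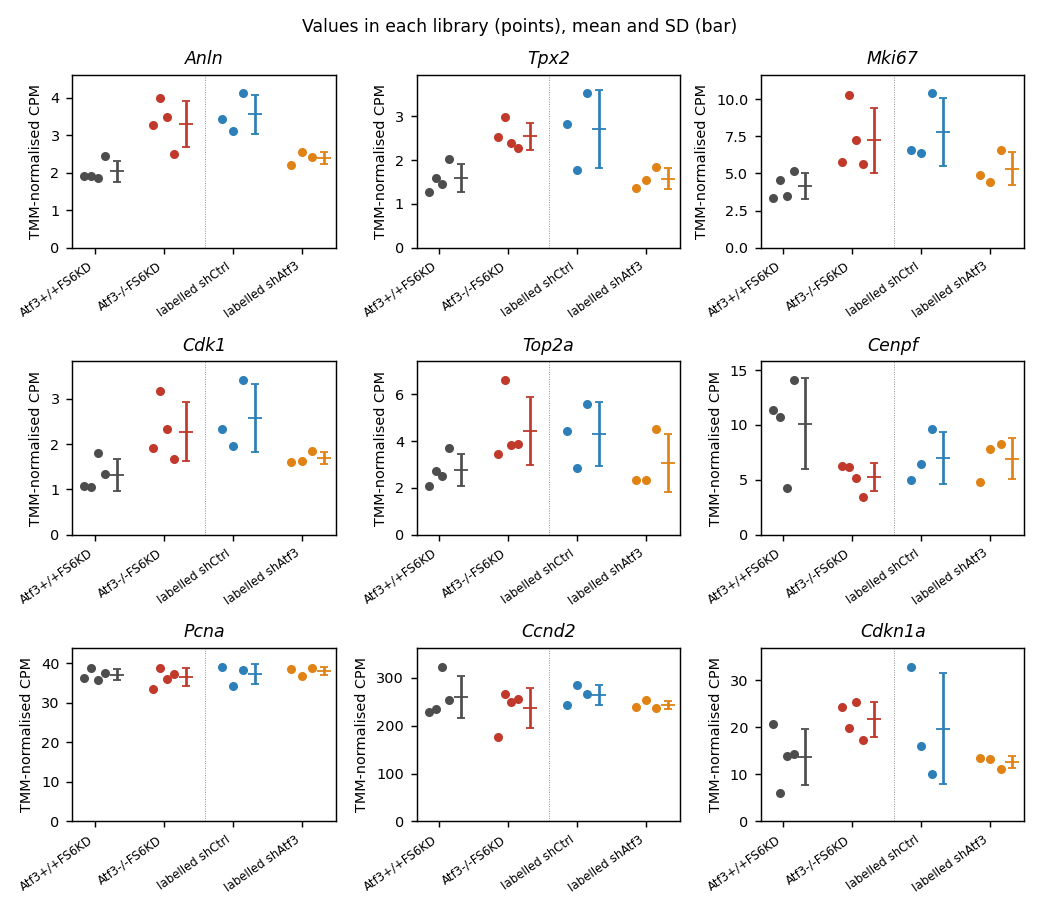
TMM-normalised CPM of 9 of the genes in each library (points in replicate order), with the mean and SD of each group beside them. Anln, Tpx2 and Mki67 do not overlap between the genotypes, Cenpf is lower in Atf3-/-FS6KD, and Pcna lies between 33.5 and 39.1 CPM everywhere.

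The mitotic genes were not equally high in all libraries of a genotype. Over the 22 mitotic genes, the mean log2 CPM was 0.17, 0.38, 0.28 and 0.75 in Atf3+/+FS6KD against 0.73, 1.29, 0.80 and 0.63 in Atf3-/-FS6KD. Atf3+/+FS6KD replicate 4 thus lay among the Atf3-/-FS6KD libraries. Atf3-/-FS6KD replicate 2 was the highest library for 17 of the 22 genes, and without it the median log2 fold change of the tested mitotic genes was 0.36 in place of 0.57, and that of all tested list genes 0.15 in place of 0.29. Within replicates 1 and 2 the mitotic median was 0.93, with 6 mitotic genes higher and 1 lower at the unadjusted threshold, which 5.9% of all genes met in either direction. Within the deeper replicates 3 and 4 it was 0.28, with 0 mitotic genes higher and 0 lower at that threshold, which 7.09% of all genes met. Over all 8 libraries the counts were 10 and 1. With depth as a term it was 0.54.

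Markers of some other cell types stood higher beside the mitotic genes. All 8 fibroblast markers had higher means in Atf3-/-FS6KD, with 6 at an unadjusted p under 0.05 and 0 at an adjusted p under 0.05, and their summed level was 1700 to 2040 CPM in Atf3+/+FS6KD against 2010 to 2750 CPM in Atf3-/-FS6KD. For macrophage markers, 9 of 10 means were higher, 2 at the unadjusted threshold, and the sums were 357 to 438 against 385 to 564 CPM. Lymphocyte markers summed to 8.22 CPM in Atf3-/-FS6KD replicate 2 and to 3.18 to 4.71 CPM in the other 7 libraries. Of 8 cardiomyocyte markers, 7 had lower means, but only Tnnt2 at the unadjusted threshold (log2 fold change -0.36), and Actc1 was higher at it (log2 fold change 0.47). Of 8 endothelial markers, 6 had higher means, with Egfl7 higher and Vwf lower at the unadjusted threshold. Their sums were 977 to 1170 against 1050 to 1200 CPM. Of 6 mural markers, 5 had higher means, Pdgfrb at the unadjusted threshold, and Acta2 was lower without meeting it (log2 fold change -1.07). Their sums were 978 to 1500 against 1170 to 1350 CPM. No marker of the fibroblast, macrophage or lymphocyte lists was at 0 in any library. The part of these cells in the mitotic difference was not tested.

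The AAV comparison asked the same of hearts labelled shAtf3 against hearts labelled shCtrl, and the values pointed down. The mean was lower in the libraries labelled shAtf3 for 33 of the 35 genes, and Pcna and Kif20a were the exceptions. None of the 34 tested genes passed an adjusted p of 0.05 in edgeR or DESeq2, which in edgeR 0.539% of all 15225 tested genes did. At an unadjusted p under 0.05, 0 were higher and 8 were lower, against 5.05% higher and 7.65% lower over all genes. With single libraries left out the 8 became 2 (without the library labelled shAtf3 replicate 1) to 15 (without the library labelled shCtrl replicate 2). For 4 of the 34 the groups did not overlap, all lower, a share near the background, where 8.48% of all genes were higher and 9.94% lower without overlap. The median log2 fold change was -0.30 for the list and -0.0029 for all genes. With single libraries left out the list median lay between -0.46, without the library labelled shCtrl replicate 2 or shAtf3 replicate 3, and -0.20, without the library labelled shCtrl replicate 3. Over the 29 genes with a mean above 1 CPM over all 6 libraries it was -0.27, with the same count of 8.

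Anln again had the smallest p. It was at 3.45, 3.11 and 4.13 CPM under the shCtrl label against 2.22, 2.56 and 2.41 CPM under the shAtf3 label. The groups did not overlap, and the log2 fold change was -0.57 with a standard error of 0.15 (edgeR adjusted p = 0.176). Cenpe, a kinesin gene of the kinetochore, was at 1.42, 1.43 and 1.65 against 1.07, 1.06 and 0.850 CPM. These groups did not overlap either, and the log2 fold change was -0.59 with a standard error of 0.19 (edgeR adjusted p = 0.243). In the knockout experiment Cenpe had been at 1.15, 1.39, 0.881 and 1.32 against 1.64, 2.21, 1.49 and 1.15 CPM, a log2 fold change of 0.45 with overlapping groups.

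Tpx2 was at 2.82, 1.78 and 3.53 CPM under the shCtrl label and at 1.36, 1.54 and 1.84 CPM under the shAtf3 label. The groups overlapped at the library labelled shCtrl replicate 2, and the log2 fold change was -0.78 with a standard error of 0.25. Cdk1 was at 2.34, 1.96 and 3.42 against 1.6, 1.63 and 1.84 CPM, without overlap, with a log2 fold change of -0.61 and a standard error of 0.22 (edgeR adjusted p = 0.305). Ccnb2 was at 1.5, 0.778 and 1.49 against 0.682, 0.673 and 0.884 CPM, with a log2 fold change of -0.75 and a standard error of 0.29. This gene passed the filter through libraries labelled shCtrl alone, and its groups overlapped. Mki67 was at 6.54, 6.38 and 10.4 against 4.92, 4.45 and 6.59 CPM, a log2 fold change of -0.55 with a standard error of 0.21. Top2a was at 4.44, 2.86 and 5.59 against 2.34, 2.34 and 4.52 CPM (log2 fold change -0.49, standard error 0.30). Both overlapped, the library labelled shAtf3 replicate 3 being the high one of its group.

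Bub1b and Kif23, which did not overlap between the genotypes, were at 1.81, 2.16 and 2.43 against 1.48, 2.21 and 1.63 CPM and at 1.62, 1.88 and 1.96 against 1.36, 1.35 and 1.84 CPM. Their log2 fold changes were -0.26 and -0.27 with overlapping groups. Cenpf was at 4.95, 6.40 and 9.59 against 4.80, 7.79 and 8.22 CPM, a log2 fold change of -0.01 with a standard error of 0.26. The spread within each label was far wider than the difference of the means.

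The 8 replication genes had a median log2 fold change of -0.24 in the AAV comparison. Of these, 2 were lower at the unadjusted threshold and 0 at the adjusted one. Mcm3 was at 7.52 to 8.16 CPM under the shCtrl label and at 5.96 to 7.41 CPM under the shAtf3 label, without overlap (log2 fold change -0.26). Mcm6 was at 10.9 to 13.9 against 9.93 to 11.3 CPM (log2 fold change -0.24). Pcna was at 39.1, 34.3 and 38.4 against 38.5, 36.8 and 38.9 CPM (log2 fold change 0.03, and -0.01 with library size alone), which is no difference beyond the spread. The G1 genes had a median log2 fold change of -0.10 and 0 genes at the unadjusted threshold. Ccnd1 was at 91.4, 82.0 and 85.5 against 77.0, 77.9 and 86.0 CPM, and Ccnd2 at 243, 284 and 267 against 240, 253 and 238 CPM. Cdkn1a was at 32.9, 16.0 and 10.2 against 13.6, 13.3 and 11.2 CPM, so the library labelled shCtrl replicate 1 alone exceeded the others by far. Its log2 fold change was -0.63, and leaving out single libraries or changing the processing moved it between -0.94 and -0.04.

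**Figure D4:**
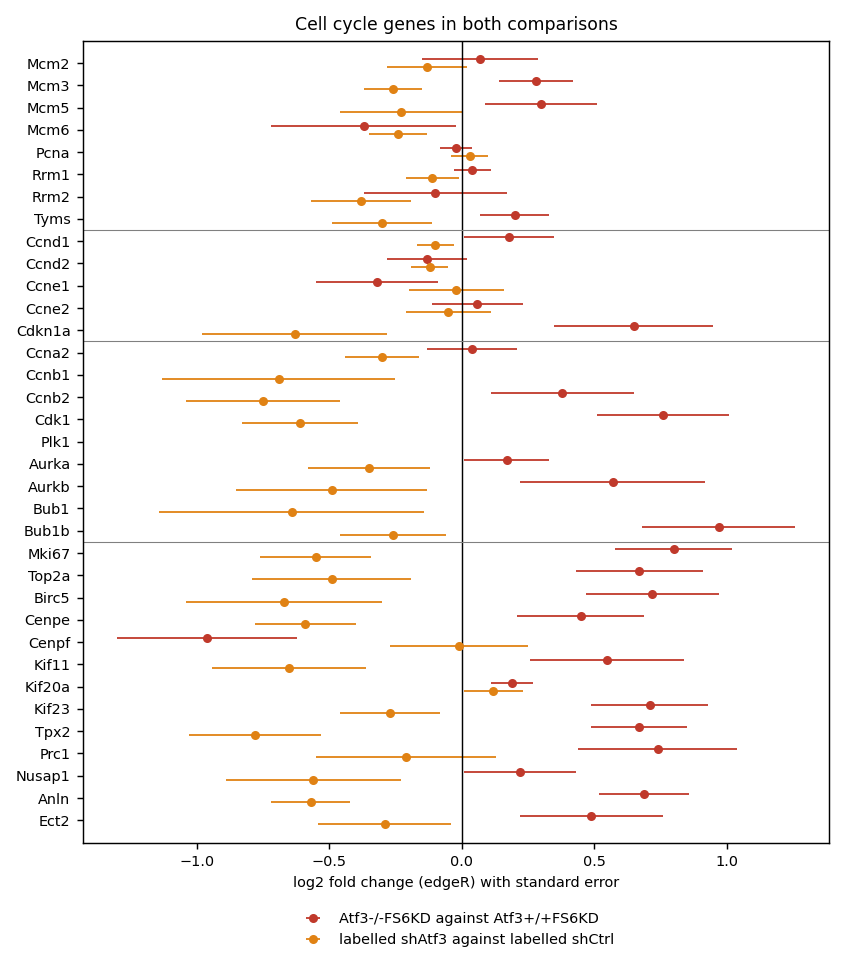
Log2 fold change with its standard error for each tested gene, Atf3-/-FS6KD against Atf3+/+FS6KD in red and labelled shAtf3 against labelled shCtrl in orange, with grey lines between the roles. Among the mitotic genes most red points lie above 0 and most orange points below it, Cenpf and Kif20a being exceptions.

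Over the 22 mitotic genes, the mean log2 CPM was 0.97, 0.65 and 1.33 under the shCtrl label against 0.43, 0.34 and 0.83 under the shAtf3 label. The ranges overlapped, since the library labelled shAtf3 replicate 3 lay above the library labelled shCtrl replicate 2. The library labelled shCtrl replicate 3 was the highest for 18 of the 22 genes, and without it the mitotic median log2 fold change was -0.29 in place of -0.55 over the 21 mitotic genes tested. Of these 21, 6 passed the filter through libraries labelled shCtrl alone, which favours lower values under the shAtf3 label. Over the other 15 the median was -0.35, over the 16 with a mean above 1 CPM over all 6 libraries it was -0.42, and with 1 CPM demanded in as many libraries as the smaller group it was -0.36. Fibroblast markers were lower in 8 of 8, 4 of them at an adjusted p under 0.05, and summed to 2340 to 3210 against 1740 to 1830 CPM. Macrophage markers were lower in 9 of 10, 5 at the unadjusted threshold, and summed to 529 to 594 against 474 to 525 CPM, while all 8 cardiomyocyte markers had higher means, 1 of them (Actc1, log2 fold change 0.17) at the unadjusted threshold. Lymphocyte markers summed to 2.87 to 4.37 against 2.45 to 3.53 CPM. The library labelled shCtrl replicate 3, the highest for the mitotic genes, was the lowest of its group for fibroblast markers. Endothelial and mural markers had 0 genes at the unadjusted threshold in the AAV comparison. Neutrophil and erythroid markers had 0 in either comparison, with 3 of 5 and 5 of 6 tested in each. None of 3 adipocyte markers and 1 of 4 atrial markers passed the filter in each comparison, so these lists were hardly tested. The part of these cells in the mitotic difference was not tested here either.

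**Figure D5:**
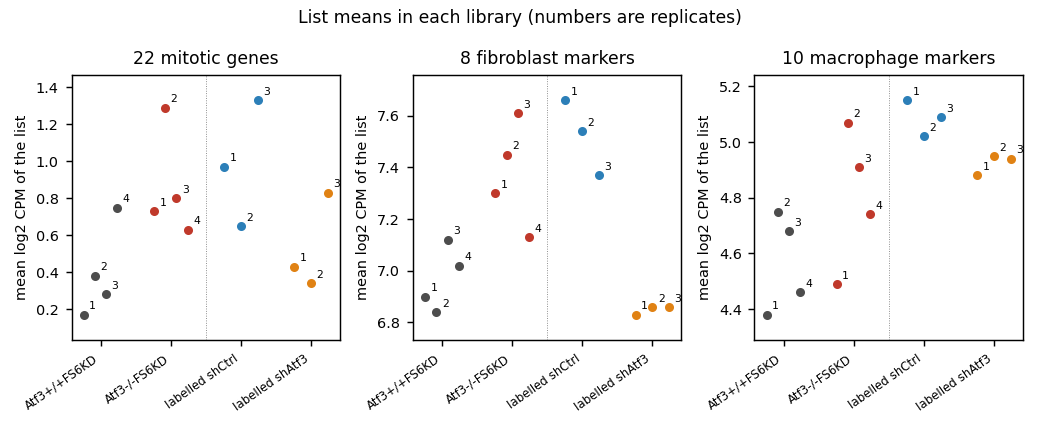
Mean log2 CPM of the 22 mitotic genes, 8 fibroblast markers and 10 macrophage markers in each library, numbered by replicate. Atf3-/-FS6KD replicate 2 (1.29) and the library labelled shCtrl replicate 3 (1.33) are the highest for the mitotic genes.

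The difference between both effects was tested as an interaction over all 14 libraries, which share no sample between the experiments. Its outcome rests on which AAV group is which, so it is given both by the labels and by the contradicting column names, a reading added after the data were seen. By the labels, the knockout effect was the higher one for 29 of 34 genes, and the median difference was 0.77 log2 units for the list and 0 for all genes. At an unadjusted p under 0.05, 13 had a positive difference and 0 a negative one, against 9.43% and 7.53% of all 15708 genes. Of the 34, 7 had passed through 1 group alone in a comparison (Ccnb1, Ccnb2, Aurkb, Bub1, Birc5, Ect2 and, with its copy apart, Kif11), which favours a positive difference by the labels. Over the other 27, 22 differences were positive, 10 of them at the unadjusted threshold, and the median was 0.51. By the column names, which turn the sign of the AAV effect, the knockout effect was the higher one for 17 of 34 genes, and the median difference was -0.03 (14 of 27 and 0.01 without those 7). Then 1 gene, Kif20a, had a positive difference at the unadjusted threshold and 0 a negative one, against 1.97% and 2.17% of all genes. None of the list passed an adjusted p of 0.05 in edgeR under either reading, which 0.166% of all genes did by the labels and 0% by the column names.

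By the labels, Anln had the smallest p, with a difference of 1.25 (standard error 0.24, edgeR adjusted p = 0.053), followed by Tpx2 with 1.44 (standard error 0.32, edgeR adjusted p = 0.0845). By the column names these differences were 0.11 (standard error 0.24) and -0.12 (standard error 0.32). Mki67 and Cdk1 had 1.34 and 1.36 by the labels against 0.25 and 0.15 by the column names. With DESeq2 these 4 genes passed an adjusted p of 0.05 by the labels, where 4.26% of all genes did, and with library size alone Anln and Tpx2 did, where 1.31% of all genes did. Neither setting was run by the column names. Cenpf had a difference of -0.95 by the labels and -0.97 by the column names (standard error 0.51 in both).

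Other genes of the same pathways were taken from fixed lists, which were also chosen with earlier results of these data known. Of 48 further genes of mitosis, 36 were tested in the knockout comparison, and 8 were higher (22.2%, against 5.41% of all genes) and 0 lower at the unadjusted threshold, with a median log2 fold change of 0.27. Over the 26 that did not pass through 1 group alone, 4 were higher (15.4%: Cdc20, Cdc25b, Racgap1 and Tacc3, named after their values were seen) and the median was 0.12. The smallest p belonged to Ckap2l, a spindle protein gene (0.641 ± 0.133 against 1.34 ± 0.353 CPM, SD, n = 4, log2 fold change 1.02), to the kinesin gene Kif22 (0.69) and to the condensin gene Ncapg (0.59), all 3 above 1 raw CPM in Atf3-/-FS6KD libraries alone. In the AAV comparison 35 were tested, 0 were higher and 5 lower (14.3%, against 7.65% of all genes), with a median of -0.28. Over the 23 that did not pass through 1 group alone, 1 was lower (4.35%, Smc4, named after its value was seen) and the median was -0.20, so the share was then below that of all genes. Over the 26 with a mean above 1 CPM over all 6 libraries, 4 were lower (15.4%). Cdca8, a chromosomal passenger gene, had a log2 fold change of -0.98, Aspm -0.89 and Ckap2l -1.05, each without overlap and each above 1 raw CPM in libraries labelled shCtrl alone. None of these passed an adjusted p of 0.05.

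The remaining lists had shares near or below those of all genes at the unadjusted threshold in the knockout comparison, so the genes named from them are given as values only. Of 36 tested genes of replication and S phase, 1 was higher (2.78%, Pola2 with a log2 fold change of 0.31) and 0 were lower, and the median was 0.03. Gins3 and Uhrf1 came next with 0.29 and 0.31. In the AAV comparison 1 was higher (2.78%), the replication licensing inhibitor Gmnn (0.31), and 0 were lower. The median was -0.06, with Gins3 at -0.35 and Pola1 at -0.22. Of the G1 and E2F/Rb genes, 26 were tested in the knockout comparison, with 2 higher (7.69%, against 5.41% of all genes) and 1 lower (3.85%, against 4.69%). Rbl2, which encodes the pocket protein p130 of quiescent cells, was at 76.5 ± 3.27 CPM with intact Atf3 against 57.9 ± 5.42 CPM without it (SD, n = 4 each), without overlap (log2 fold change -0.41, standard error 0.08, edgeR adjusted p = 0.248). E2f4 and E2f8 had log2 fold changes of 0.13 and 0.39. In the AAV comparison 27 were tested, with 0 higher and 1 lower (3.7%, against 7.65% of all genes). This was Myc, at 5.73 ± 1.18 CPM under the shCtrl label and 3.51 ± 0.174 CPM under the shAtf3 label (SD, n = 3 each, log2 fold change -0.71, edgeR adjusted p = 0.126), followed by Lin54 (0.21) and Lin52 (0.16). Among 19 tested p53 targets and growth arrest genes, 1 was higher (5.26%, Trp53 with 0.27) and 1 lower (5.26%, Btg2 with -0.58) in the knockout comparison, followed by Sesn1 (-0.19). In the AAV comparison 0 were higher and 4 lower (21.1%, against 7.65% of all genes), led by Trp53inp1 (-0.30), Plk2 (-0.27) and Gadd45b (-0.25).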

How the data were processed

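RNA of whole hearts, isolated with a kit for fibrous tissue, had been sequenced as stranded mRNA libraries in single-end reads. The authors deposited 1 table of estimated counts per experiment, with no normalization and no pooling, and per library 19.3% to 24.4% of the values held decimals. The submitters' notes name GRCm38.p6 and featureCounts 2.0.0, and the aligner and use of strand are not given in the sources used here. Values were rounded to whole numbers. Samples were grouped by their GEO labels, and 0 columns of samples were left out. Of the 42396 genes listed, 2379 carry a gene symbol with a number added and were read as copies on alternate loci. They held 2.40% to 2.59% of the counts. Replicates of a group differed by a chi-square per gene of 7.31 to 99.3, beyond sampling noise. The labels do not say whether replicates were separate litters. The p-values treat the hearts of a group as independent, which could not be checked.

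Genes above 1 raw CPM in at least 1 library of a comparison (the study's filter) were tested with edgeR 4.0.16 in R 4.3.3 (two-sided quasi-likelihood test after TMM scaling, no covariate, p adjusted by Benjamini-Hochberg over all genes tested). The common biological coefficient of variation was 16.4% in the knockout and 9.37% in the AAV experiment. Log2 CPM used a prior count of 2. The interaction used 1 mean per group over 14 libraries. DESeq2 1.42.0, limma 3.58.1, other scalings and filters, summed copies, a replicate block, depth as a term and each library left out were alternatives. Turning the AAV groups to the column names, levels and passes with copies summed, and counts by role, for the interaction and for the other lists without genes that passed the filter through 1 group alone or by the mean over all libraries, were chosen after seeing the data. The test was checked on simulated data with changes of 2-fold or more and 1 spread for all genes of an experiment. The changes of the list in both comparisons were smaller, so this check did not cover them. The 35 genes, the other lists and the marker lists were chosen with earlier results of these data known. Values in every library are given for the 5 genes with the smallest p in each comparison and for Mki67, Top2a, Cdk1, Pcna, Ccnd1, Ccnd2 and Cdkn1a, and of the other lists the 3 genes with the smallest p are named. Cenpf was added after its values were seen. Promoters and gene positions are RefSeq's for GRCm38.p6.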

Additional observations from a re-analysis of the deposited data

Results flagged for a closer look

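Each of the 64 sets of 4 knockout-experiment values (the tested genes in each genotype) was searched for a library far from the others by Dixon's criterion, which chance meets in about 5% of sets. It was met in 5. Atf3-/-FS6KD replicate 2 stood apart for Aurkb (1.5 CPM against 0.566 to 0.688 in the other 3 libraries), Top2a (6.62 against 3.45 to 3.86), Birc5 (1.29 against 0.728 to 0.820) and Prc1 (3.34 against 2.02 to 2.22). Atf3+/+FS6KD replicate 4 stood apart for Anln (2.46 CPM against 1.87 to 1.91).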

How the results depend on the processing

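The sign of the median log2 fold change of the list was kept in every alternative. Replicates 1 and 2 alone gave 0.53 for the list and 0.93 for the mitotic genes. Replicates 3 and 4 alone gave 0.11 for the list, in place of 0.29, and 0.28 for the mitotic genes, 2 list genes at an unadjusted p under 0.05 in place of 11, and 8 genes called overall. In the knockout comparison, 208 genes were called with DESeq2, 2 with no filter and 0 to 15 with single libraries left out (15 each without Atf3+/+FS6KD replicate 1 and without Atf3-/-FS6KD replicate 3). In the AAV comparison the 82 genes called became 308 with DESeq2, 304 with no filter, 20 with a replicate block and 1 to 285 with single libraries left out (1 without the library labelled shAtf3 replicate 2, 285 without the library labelled shCtrl replicate 3), and the 8 list genes at the unadjusted threshold became 4, 13, 11 and 2 to 15. The lowest, 2, came without the library labelled shAtf3 replicate 1, and 15 without the library labelled shCtrl replicate 2. For the interaction, 205 genes were called with library size alone, 669 with DESeq2 and 0 with the AAV groups as the column names read (added after the data were seen), in place of 26. Demanding 1 CPM in every library left 22 genes of the list in place of 34. DESeq2 placed Mki67 past the threshold in the knockout comparison (adjusted p = 0.0497).

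Values near 0 changed sign. Pcna in the knockout comparison was 0.04 with library size alone, 0 within replicates 3 and 4 and -0.05 to 0.01 with single libraries left out, the highest without Atf3-/-FS6KD replicate 1. In the AAV comparison it was -0.01 with library size alone and -0.03 to 0.07 with single libraries left out, the lowest without the library labelled shCtrl replicate 2. Cenpf in the AAV comparison was 0.01 with limma-trend, 0 with the replicate block, and -0.21 to 0.29 with single libraries left out, 0.29 without the library labelled shCtrl replicate 3 and 0.20 without the library labelled shAtf3 replicate 1. The cause of these changes was not tested. In the knockout experiment the replicate number went with depth, replicates 3 and 4 of both genotypes being the deeper libraries. Deviations of same-numbered libraries correlated at 0.19, 0.09, 0.03 and 0.15 in the knockout and at -0.04, 0.17 and 0.06 in the AAV experiment. These values cannot show whether same-numbered libraries share more. The other 450 single-gene and 107 summary values stayed on their side of the threshold or within the limits set for counts and medians. The lowest count behind a value of a tested mitotic gene was 8 reads, for Bub1 in the AAV experiment.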
